A study of Mus musculus with 15 samples.

Results

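The *Zfp* genes are mouse zinc finger genes named by a number, most of which code for DNA-binding proteins built from repeated C2H2 fingers. In a C2H2 finger a pair of cysteines and a pair of histidines hold a zinc ion, so that a short helix can lie in the groove of DNA. Many of these proteins also carry a KRAB box, which recruits the corepressor TRIM28 and enzymes that close chromatin, and others act in neural development, RNA processing or ribosome quality control. The genes arose largely by tandem duplication, so that many of them lie in clusters. The members described here were chosen by their symbol, *Zfp* followed by digits only, and by their measured level, a mean of 1 FPKM or more over the 4 groups of the cortex RNA-seq table. FPKM is a count of sequenced fragments scaled to transcript length and to sequencing depth. This gave 154 of the 340 *Zfp* genes in the table (45.3%), out of 23235 genes in all. Over the whole table, 10297 genes reached the same mean and are the tested genes below.

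Cortex was taken from adult male mice 6 h after lights on (Zt +6, light) or 16 h after lights on (Zt +16, dark). WT mice were C57BL/6J, with 3 mice at Zt +6 and 2 at Zt +16. *Snord116del* mice (strain B6(Cg)-Snord116tm1.1Uta/J, +/-) carry a deletion of the *Snord116* cluster of the Prader-Willi locus on the paternal chromosome, with 2 mice at each time. Each gene has a single FPKM value per group, so the spread between mice is unknown, no test was possible, and every difference below is a description of 4 values. ChIRP-seq peak lists of *116HG*, the long non-coding host gene RNA of *Snord116*, came from a hemisphere of adult brain of the same genotypes. ChIRP pulls an RNA out of cross-linked chromatin with biotinylated oligos and sequences the DNA that comes with it.

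Several facts of the whole table bear on the values. The total FPKM over the table was 159300 for WT Zt +6, 160199 for *Snord116del* Zt +6, 216422 for WT Zt +16 and 342188 for *Snord116del* Zt +16. The median of the tested genes was 3.17, 5.63, 2.90 and 4.00 FPKM in the same order, so the *Snord116del* groups stood higher over most genes. The labels of both *Snord116del* mice and of 1 WT mouse at Zt +6 name another processed table than those of the remaining mice. Whether this marks a batch of libraries or only a version of the table is not known. What it does to the group values was not tested. *Snord116* itself was listed at 0 in all groups, and *Ipw*, which is also transcribed from the paternal copy of this locus, went from 21.6 (WT) to 3.40 FPKM (*Snord116del*) at Zt +6 and from 3.17 to 1.82 at Zt +16. Markers of neurons summed to between 632 and 1079 FPKM over the groups, with none of 8 at 0. Those of cortical excitatory neurons (27.0 to 71.6), astrocytes (14.8 to 98.5) and endothelium (2.00 to 17.1) were highest in *Snord116del* at Zt +6, while those of oligodendrocytes (429 to 1018) were highest in *Snord116del* at Zt +16. Those of choroid plexus, nearly all *Ttr*, summed to 202.5 and 184.7 FPKM at Zt +6 and to 25.8 and 30.9 at Zt +16 (WT before *Snord116del*), so they moved with each light to dark comparison. The part of cell composition in the *Zfp* values was not tested, and in bulk cortex fewer cells of a type and less RNA per cell cannot be told apart.

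The sequences that make these genes a family are shown for genes that differed most between genotypes at Zt +6, the 3 with the largest positive and 3 of the 4 with the largest negative difference of *Snord116del* from WT. *Zfp593*, with the third largest negative difference, is left out because its finger is split between coding exons. Each line is the coding sequence of 1 finger, the earliest that lies in a single coding exon, read from the mm9 assembly (NCBIM37) on the strand of the gene, with the codons of the cysteines and histidines that hold the zinc in capitals. The first of these was the first finger of the protein in all but *Zfp106*, where it was the second match.
Zfp445: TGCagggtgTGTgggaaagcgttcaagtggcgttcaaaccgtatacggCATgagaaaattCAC
Zfp106: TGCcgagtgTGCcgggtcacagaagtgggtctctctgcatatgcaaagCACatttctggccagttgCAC
Zfp644: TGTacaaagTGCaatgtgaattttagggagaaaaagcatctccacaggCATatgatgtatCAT
Zfp580: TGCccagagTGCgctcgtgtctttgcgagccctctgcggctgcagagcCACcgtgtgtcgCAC
Zfp771: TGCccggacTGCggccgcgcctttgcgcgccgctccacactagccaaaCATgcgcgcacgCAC
Zfp428: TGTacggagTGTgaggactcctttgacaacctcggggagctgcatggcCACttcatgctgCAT
These lie at chr9:122762517-122762579 (minus), chr2:120365144-120365212 (minus), chr5:107066400-107066462 (minus), chr7:5004698-5004760 (plus), chr7:134397370-134397432 (plus) and chr7:25300469-25300531 (plus), in the order shown. GC content of the first 3 stretches was 49.2%, 55.1% and 36.5%, and that of the last 3 was 66.7%, 71.4% and 55.6%.

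In the coding sequences of the 154 members the finger pattern (cysteines 2 to 4 residues apart, 12 residues, then histidines 3 to 5 residues apart) was found between 0 and 36 times, with a median of 9. *Zfp142* had the 36 matches and *Zfp462* had 33, while 7 members, among them *Zfp365* and *Zfp259*, had none. A KRAB box was found in 49 members. The members lay on 20 chromosomes, 35 of them on chromosome 7, 16 on chromosome 17, 15 on chromosome 8 and 13 on chromosome 6, and 68 lay within 100 kb of another *Zfp* gene. Their transcripts were 732 to 13843 bases long with a GC content between 36.9% and 68.3%.

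At Zt +6, a *Zfp* gene was usually higher in *Snord116del* than in WT cortex. The median of the members was 1.63 FPKM in WT and 3.54 FPKM in *Snord116del*. A gene was counted as past the fold when log2(FPKM + 1) differed by at least the log2 of 1.5 and the larger of both values was 1 FPKM or more, a scale that understates the change of low genes. By this rule 90 members were higher in *Snord116del*, 7 were lower and 57 were neither. Of all tested genes, 49.3% were higher and 7.62% lower. The median change was 0.71 over the members and 0.57 over all tested genes, with 138 members above 0 and 16 below.

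The level at which genes enter matters for this count. The mean of 4 groups includes the *Snord116del* Zt +6 value, and 45 members reached 1 FPKM only with that value, of which 41 counted as higher at Zt +6. Among the other 109 members, which had a mean of at least 1 FPKM over the other 3 groups, 49 were higher (45.0%) and 7 lower (6.42%). The same filter over all genes gave 44.3% higher and 8.57% lower. The 58.4% of members higher in *Snord116del* thus stood above the background only with genes that the Zt +6 value itself brought in. Of the 186 *Zfp* genes under a mean of 1 FPKM, 66 were higher (35.5%) and 0 lower by the same rule, against 7.45% and 0.0618% of all genes under that mean. These shares were not matched for level. A gene that is silent or below 1 FPKM in every group cannot be counted, and only 1 of the 186 was at 0 in all groups. The shares can thus not be read as a difference between *Zfp* and other low genes. Just inside the limit lay *Zfp781*, with 0.824 and 2.46 FPKM in WT and *Snord116del* at Zt +6, *Zfp959* with 0.716 and 2.21, and *Zfp58* with 0.718 and 1.45. Just outside it lay *Zfp948* with 0.897 and 2.00, *Zfp711* with 0.790 and 2.02, and *Zfp758* with 0.762 and 2.25, so the genes on both sides of the limit looked alike.

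The count also depended on how the groups were scaled. When the groups were brought to a common median of the tested genes, 24 members were higher and 15 lower in *Snord116del* at Zt +6, against 14.8% and 24.2% of all tested genes. The higher genes made up 92.8% of the members past the fold as deposited, 61.5% at the same median and 59.0% after quantile normalization. The median change of the members was 0.14 at the same median, where that of all tested genes was -0.06. Of all tested genes past the fold, the higher ones made up 86.6%, 37.9% and 49.7% in the same 3 settings. After quantile normalization 14.9% of the members were higher and 10.4% lower, below the 20.7% and 21.0% of all tested genes. All 7 members that were lower as deposited were also past the fold and lower at the same median, as were 24 of the 90 that were higher, and no member went past the fold in the opposite direction.

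Among KRAB zinc finger genes with a known target or partner, 2 of the 9 listed were members, and both reached a mean of 1 FPKM only with the *Snord116del* Zt +6 value. *Zfp445*, which helps to maintain genomic imprinting in the embryo, had 1.74 (WT) and 8.10 FPKM (*Snord116del*) at Zt +6, and 0.376 and 0.531 at Zt +16. Its difference of 1.73 at Zt +6 was the largest of all members, and it was still 1.07 at the same median. The gene lies at chr9:122761032-122771246 (mm9, minus strand) and its protein has 12 fingers. *Zfp37*, in whose coding sequence the KRAB search matched 12 positions where 15 were needed and which is counted below among the genes without a KRAB box, had 1.28 and 3.97 FPKM at Zt +6 and 0.518 and 0.785 at Zt +16, in the same order of groups. In both genes the *Snord116del* Zt +6 value stood above the other 3. The other 7 genes of this list, including *Zfp57*, the partner of *Zfp445* in imprinting, and *Zfp809*, a silencer of retroviruses, were under 1 FPKM on average. *Zfp57* was listed at 0.415 and 1.54 FPKM at Zt +6 and at 0.311 and 0.192 at Zt +16, and *Zfp809* at 0.596, 2.56, 0.180 and 0.378 FPKM in the same order.

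Of the 8 listed genes of neural development, 6 were members, and 5 of these were higher and 0 lower at Zt +6, where 49.3% and 7.62% of all tested genes were. At the same median 4 were higher and 0 lower, against 14.8% and 24.2% of all tested genes. *Zfp238* codes for a repressor that cortical neurons need for their differentiation. It had 11.0 (WT) and 32.4 FPKM (*Snord116del*) at Zt +6, and 8.87 and 13.0 at Zt +16, a difference of 1.48 at Zt +6 and 0.51 at Zt +16. *Zfp365*, whose product binds DISC1, had 18.9 and 44.6 FPKM at Zt +6 and 13.8 and 21.3 at Zt +16. It was the only member higher in *Snord116del* past the fold at both times, by 1.20 and 0.59. *Zfp462*, *Zfp292* and *Zfp335*, the last a part of a histone methyltransferase complex needed by neural progenitors, were between 0.921 and 1.39 FPKM in WT and between 3.74 and 4.58 in *Snord116del* at Zt +6, and under 1 FPKM in both groups at Zt +16. *Zfp462* and *Zfp292* are among the 45 members that reached the limit only with the *Snord116del* Zt +6 value. *Zfp335* shares exon bases with genes on the opposite strand, and whether strand was used in counting is not given in the sources used here. *Zfp423*, a regulator of cerebellar development, did not pass the fold, with 1.51 and 1.82 FPKM at Zt +6 and 1.97 and 2.44 at Zt +16. *Zfp521* and *Zfp536* were under a mean of 1 FPKM.

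Of the 9 listed genes of RNA processing and the ribosome, 7 were members, and 3 of these were higher and 1 lower at Zt +6, against 49.3% and 7.62% of all tested genes. At the same median 1 was higher and 1 lower, against 14.8% and 24.2% of all tested genes. *Zfp106*, which codes for an RNA-binding protein that motor neurons need, had 7.44 (WT) and 26.4 FPKM (*Snord116del*) at Zt +6, and 3.54 and 4.62 at Zt +16. *Zfp598*, a ubiquitin ligase that senses collided ribosomes, had 2.05 and 4.33 FPKM at Zt +6 and 1.44 and 2.15 at Zt +16. *Zfp207*, which acts at the mitotic spindle, had 10.2 and 17.9 FPKM at Zt +6 and 10.2 and 15.1 at Zt +16, but its difference of 0.76 at Zt +6 was -0.01 at the same median. *Zfp593*, a factor of large ribosomal subunit assembly, was lower, with 2.77 FPKM for WT and 1.18 for *Snord116del* at Zt +6, and 3.47 and 5.38 at Zt +16. *Zfp326*, *Zfp346* and *Zfp622* were neither, with differences of 0.52, 0.52 and 0.21 at Zt +6. At the same median these were -0.02, -0.11 and -0.47. *Zfp622*, which also acts on the large ribosomal subunit, had 4.29 and 5.10 FPKM at Zt +6 and 4.16 and 6.28 at Zt +16.

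Of the 11 listed general regulators of transcription, 9 were members, and 6 of these were higher and 0 lower at Zt +6, against the same 49.3% and 7.62%. At the same median 3 were higher and 0 lower, against 14.8% and 24.2% of all tested genes. *Zfp644*, a partner of the G9a histone methyltransferase, had 5.71 (WT) and 20.3 FPKM (*Snord116del*) at Zt +6, and 4.08 and 5.60 at Zt +16. *Zfp148* and *Zfp281*, related factors that bind GC-rich promoters, had 1.77 and 7.75 FPKM and 2.81 and 7.36 FPKM at Zt +6. At Zt +16 *Zfp148* had 0.705 and 0.986 FPKM and *Zfp281* 2.04 and 2.87. *Zfp384* went from 2.49 to 7.95 FPKM, *Zfp91* from 6.96 to 15.3 and *Zfp592* from 1.94 to 4.34 at Zt +6. *Zfp410*, an activator of *Chd4*, had 2.34 and 3.08 FPKM, *Zfp219* 1.52 and 2.73 and *Zfp687* 1.73 and 2.36, and none of these passed the fold. *Zfp800*, which is in none of the lists, had the fifth largest difference of the members and went from 1.69 (WT) to 6.82 FPKM (*Snord116del*) at Zt +6 and from 0.921 to 1.22 at Zt +16.

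**Figure D1:**
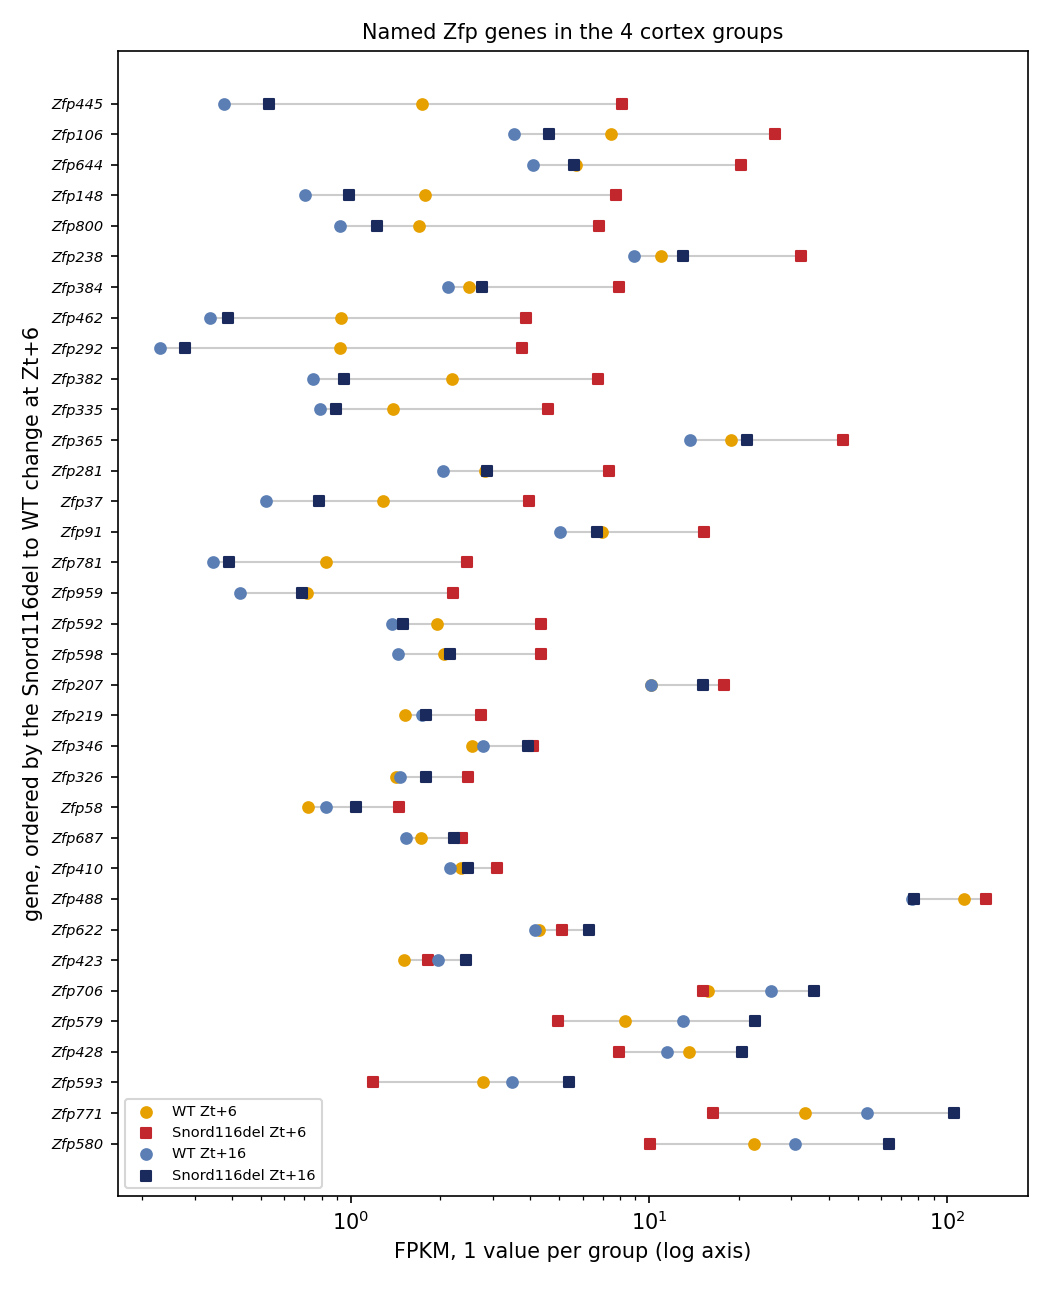
FPKM of the named *Zfp* genes on a log axis, with 1 point per group (circles WT, squares *Snord116del*; warm colours Zt +6, blue Zt +16) and a grey line from the lowest to the highest group, ordered by the genotype change at Zt +6. In *Zfp445* the *Snord116del* Zt +6 square at 8.10 FPKM lies far to the right of the other groups, while in *Zfp580* and *Zfp771* at the bottom it lies at the left end.

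The 7 members that were lower in *Snord116del* at Zt +6 had a higher median level than the rest. They were *Zfp580*, *Zfp771*, *Zfp593*, *Zfp428*, *Zfp579*, *Zfp688* and *Zfp467*, with a median mean level of 12.2 FPKM, against 1.88 FPKM for the 90 that were higher. *Zfp580* had 22.5 (WT) and 10.0 FPKM (*Snord116del*) at Zt +6, and 30.7 and 63.9 at Zt +16. *Zfp771* had 33.4 and 16.4 FPKM at Zt +6 and 53.9 and 105.5 at Zt +16. *Zfp428* had 13.6 and 7.94 FPKM at Zt +6 and 11.5 and 20.5 at Zt +16. In each of these the *Snord116del* group was the lowest of the 4 at Zt +6 and the highest at Zt +16. *Zfp579*, with 8.32 and 4.95 FPKM and then 13.0 and 22.7, *Zfp688* with 4.80, 2.75, 7.10 and 12.0 and *Zfp467* with 6.86, 4.21, 8.95 and 15.4 had the same lowest and highest groups. Of these 7 members 5 lie on chromosome 7. Their transcripts had a median length of 1232 bases and a median GC content of 63.8%, against 3879.5 bases and 46.2% for the 90 higher members. Of the 7, 1 remained past the fold with the trend on transcript length removed and 1 at a fold of 2.

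*Zfp488*, which codes for a cofactor of oligodendrocyte differentiation, had the highest mean of all members, 100.5 FPKM. It had 114 (WT) and 134.9 FPKM (*Snord116del*) at Zt +6, and 76.2 and 77.1 at Zt +16, and passed the fold only from light to dark in *Snord116del*, with a difference of -0.80. *Zfp771* followed with a mean of 52.3 FPKM and *Zfp580* with 31.8.

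At Zt +16 the members were only slightly higher in *Snord116del*. Their median was 1.36 FPKM in WT and 1.85 in *Snord116del*, and the median difference was 0.24, against 0.35 for all tested genes. By the fold rule 11 members were higher and 0 lower, where 19% of all tested genes were higher and 0.204% lower. The 11 were *Zfp365*, *Zfp212*, *Zfp653*, *Zfp787*, *Zfp259* and 6 of the 7 that had been lower at Zt +6. The largest differences were 1.03 for *Zfp580*, 0.96 for *Zfp771* and 0.78 for *Zfp428*. Scaled to the same median, 0 members passed the fold in either direction at this time.

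The genotype difference was therefore set side by side at the 2 times, which share no mice. Of the 90 members higher at Zt +6, 1 was also higher at Zt +16, and of the 7 lower at Zt +6, 6 were higher at Zt +16. Among all tested genes these shares were 6.07% of 5073 and 59.7% of 785. The difference at Zt +6 minus that at Zt +16 had a median of 0.46 over the members and 0.22 over all tested genes. It was above 0 in 119 members and below 0 in 35, and in 6208 and 4089 of all tested genes. It contains the *Snord116del* Zt +6 value, with which alone 45 of the 154 members reached 1 FPKM. The members were thus partly chosen on a value that enters this difference. Without replicates this difference could not be tested.

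**Figure D2:**
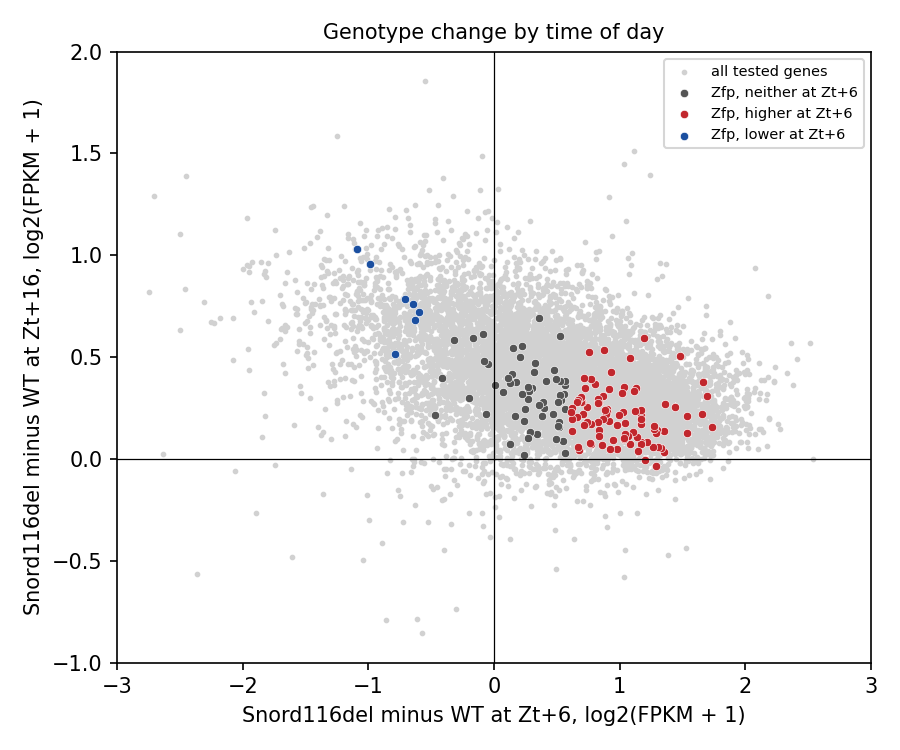
Difference between *Snord116del* and WT in log2(FPKM + 1) at Zt +6 (horizontal) and at Zt +16 (vertical), with grey points for all tested genes, of which 41 lie outside the axes, and coloured points for the 154 *Zfp* genes by their class at Zt +6. The 7 blue genes lie at the upper left, with *Zfp580* at -1.09 and 1.03, and the 90 red genes at the right have a median of 0.20 on the vertical axis.

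From light to dark in WT cortex, 3 members were higher at Zt +16 and 12 lower, where 5.71% and 10.3% of all tested genes were. The median change was -0.12 over the members and -0.04 over all tested genes. Between the same groups *Ttr*, a choroid plexus marker, went from 199.8 to 24.9 FPKM, and its bearing on the members was not tested. *Zfp771* was higher by 0.67, *Zfp706* went from 15.7 to 25.6 FPKM and *Zfp579* from 8.32 to 13.0. *Zfp445* went from 1.74 to 0.376 FPKM, *Zfp106* from 7.44 to 3.54 and *Zfp382*, a KRAB gene, from 2.19 to 0.748. All 12 members lower in the dark in WT were among the 90 that were higher in *Snord116del* at Zt +6. Both comparisons contain the WT Zt +6 group, so they are not independent of each other.

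From light to dark in *Snord116del* cortex, 15 members were higher and 77 lower, where 25% and 39.1% of all tested genes were. The median change was -0.57 over the members and -0.24 over all tested genes. The largest downward differences were *Zfp445* from 8.10 to 0.531 FPKM, *Zfp106* from 26.4 to 4.62 and *Zfp148* from 7.75 to 0.986. The largest upward differences were *Zfp771* from 16.4 to 105.5 FPKM, *Zfp580* from 10.0 to 63.9 and *Zfp579* from 4.95 to 22.7. At the same median 23 members were higher and 51 lower, so the higher genes were 31.1% of the members past the fold in place of 16.3%. This comparison shares the *Snord116del* Zt +6 group with the genotype comparison at that time, and 74 of the 90 members higher there were lower here. Of the 154 members, 45 reached 1 FPKM only with the *Snord116del* Zt +6 value, from which this comparison starts. Their fall is thus partly fixed by how members were chosen, and the count was not made without them.

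What the members have in common beyond their names was then set against the Zt +6 difference. Of the 49 members with a KRAB box, 34 were higher (69.4%) and 1 lower, with a median difference of 0.74. Of the 105 without, 56 were higher (53.3%) and 6 lower, with a median of 0.70. The share of higher genes grew with the number of fingers, from 47.4% of 38 members with 0 to 4 fingers through 52.8% of 53 with 5 to 9 and 65.0% of 40 with 10 to 14 to 78.3% of 23 with 15 or more. At Zt +16 few members were higher in any class, 6 of the 38, 4 of the 53, 1 of the 40 and 0 of the 23 in the same order. Of all tested genes 19% were higher at that time, and at the same median 0 members were. None of these shares was tested, and the classes differed in level, with a median mean of 1.45 FPKM with a KRAB box and 2.51 without, and of 3.77, 2.20, 1.53 and 1.84 FPKM over the finger classes in order. Among the 109 members that reached 1 FPKM without the *Snord116del* Zt +6 value, 12 of 24 with a KRAB box (50%) and 37 of 85 without (43.5%) were higher. In the same 109 the finger classes had 42.4%, 42.9%, 36.8% and 66.7% higher, so no steady order was left.

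GC content and length of the transcript moved with the same difference. Of the 51 members lowest in GC, 82.4% were higher at Zt +6. Of the 52 highest in GC 28.8% were higher, and all 7 lower members were among these. Among the 109 the share was 69.6% in the lowest GC class, 55.3% in the middle and 25% in the highest. Spearman's rho with GC was -0.50 over the 154 members and -0.38 over 9943 tested genes with a transcript, and with length it was 0.39 and 0.63. These are correlations across genes within the same 4 values. The members with a KRAB box had a median GC content of 43.7% and those without 51.3%. Below the median GC of the members, 29 of 34 with a KRAB box (85.3%) and 32 of 43 without (74.4%) were higher. Above it the counts were 5 of 15 (33.3%) and 24 of 62 (38.7%), so the order of the KRAB classes was not the same at both GC levels. On chromosome 17, where the members had a median GC of 43.2%, 14 of 16 were higher. On chromosome 7, with a median GC of 53.1%, 16 of 35 were higher and 5 lower. Of all tested genes 49.3% were higher and 7.62% lower. The counts by chromosome, and by KRAB box below and above the median GC, use all 154 members. They include the 45 that reached 1 FPKM only with the *Snord116del* Zt +6 value, and were not made for the 109. With the trend on transcript length removed, 70 members (45.5%) were higher and 1 lower at Zt +6, against 47.4% and 2.23% of all tested genes. The median was then 0.55 over the members and 0.56 over all tested genes, and the differences of *Zfp580* and *Zfp771* were -0.47 and -0.43. The part of GC and length in the genotype difference was not tested, and with 1 value per group it cannot be told apart from the genotype.

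**Figure D3:**
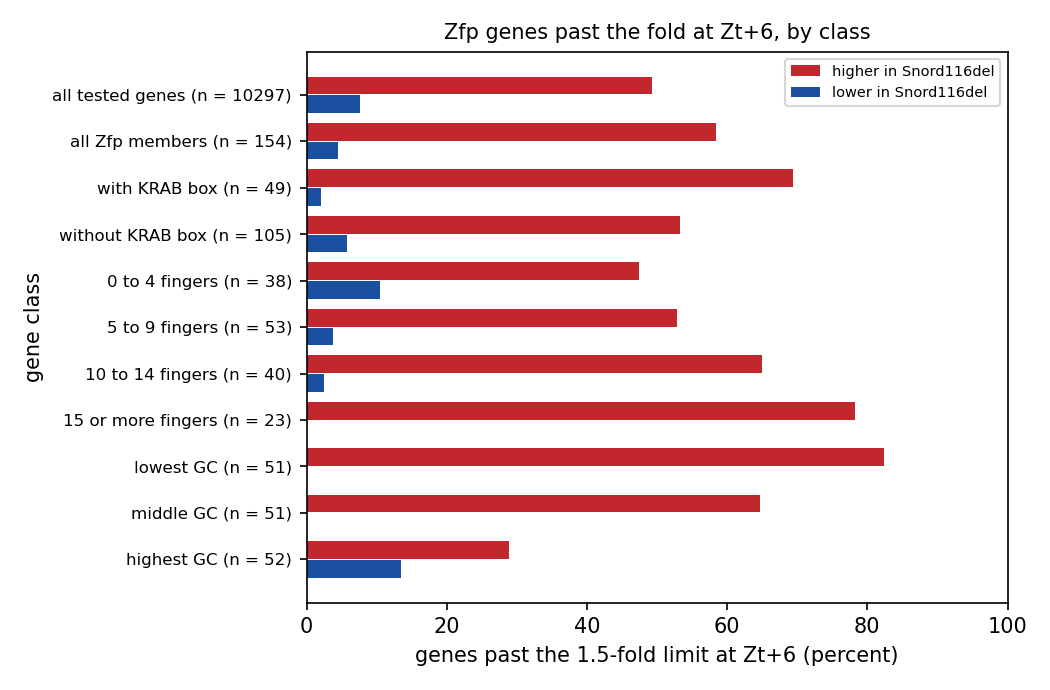
Share of genes past the 1.5-fold limit at Zt +6 in percent, higher in *Snord116del* (red) and lower (blue), for all tested genes, all *Zfp* members and their classes by KRAB box, number of fingers and transcript GC. The red bar is longest for the lowest GC class (82.4%) and shortest for the highest (28.8%).

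**Figure D4:**
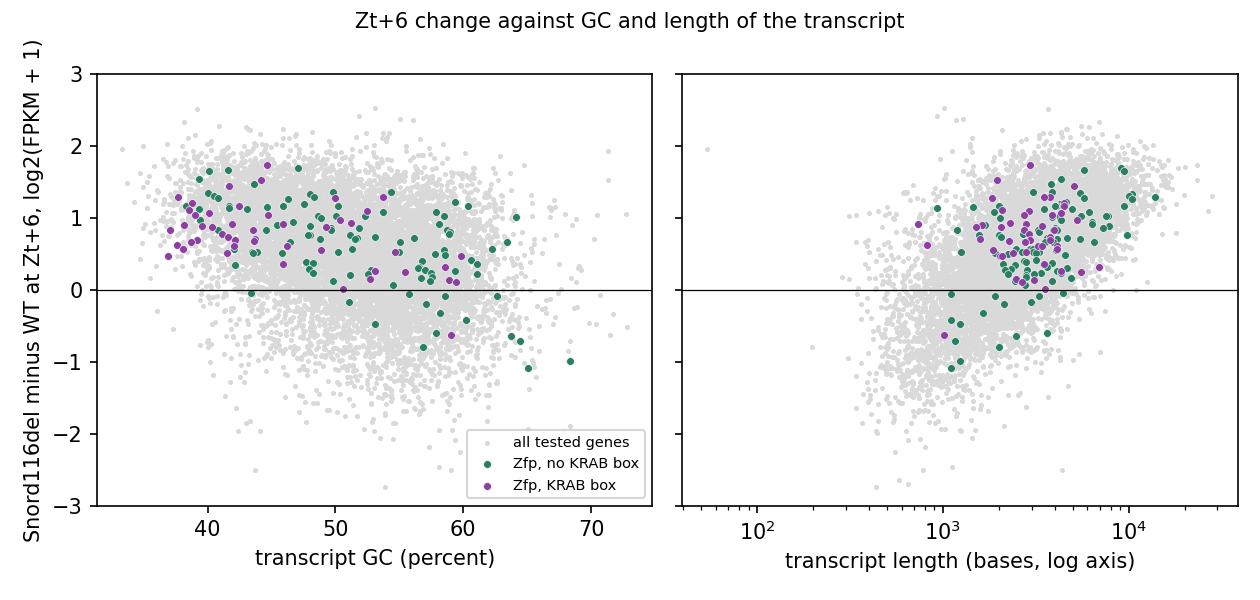
Difference between *Snord116del* and WT at Zt +6 in log2(FPKM + 1) against GC content (left) and length (right, log axis) of the transcript, with grey points for all tested genes and coloured points for the *Zfp* genes with (purple) and without (green) a KRAB box. The *Zfp* genes slope down with GC (rho -0.50) and up with length (rho 0.39), and the purple points lie lower in GC, with a median of 43.7%.

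Tandem copies make the level of some members uncertain, since a read can match more than 1 gene. In 10 members more than 5% of the 50-base windows of the transcript also stood in another coding gene, and these genes were named after their values had been seen. All windows of *Zfp781* stood in *Gm3055*, 55.4% of those of *Zfp932* in other genes, 24.4% of those of *Zfp738* and 23.6% of those of *Zfp959*. *Zfp932*, whose protein is 92.8% identical to that of *Gm15446*, had 2.95 and 7.56 FPKM at Zt +6 and 2.12 and 2.92 at Zt +16 (WT before *Snord116del*). *Zfp738* had 0.835 and 3.23 FPKM at Zt +6 and 0.317 and 0.311 at Zt +16. On chromosome 8, *Zfp866*, *Zfp868* and *Zfp869*, shared 11.9%, 6.52% and 9.34% of their windows with other genes and were higher in *Snord116del* at Zt +6 by 0.62, 0.68 and 0.71. Of the 10 members, 8 were higher at Zt +6, and *Zfp422* and *Zfp575* were neither, with 0.51 and 0.40. Of all members 58.4% were higher, and of all tested genes 49.3%. Among the 8, *Zfp781*, *Zfp738*, *Zfp959*, *Zfp866* and *Zfp868* were under 1 FPKM in every group but *Snord116del* Zt +6. They are thus members only through the value that makes them higher. *Zfp944*, also among the 8, had 1.15 FPKM in *Snord116del* at Zt +16. It too reached a mean of 1 FPKM only with the *Snord116del* Zt +6 value.

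The partners of KRAB zinc finger proteins, which carry out their repression, were counted as the rest of the pathway. Of 19 listed genes 17 were tested, and 13 were higher and 0 lower in *Snord116del* at Zt +6, with a median of 1.05, against 49.3%, 7.62% and 0.57 for all tested genes. At the same median 6 were higher and 2 lower, against 14.8% and 24.2% of all tested genes. *Trim28*, the corepressor that binds the KRAB box, was not among them, with 11.3 and 9.67 FPKM at Zt +6 and 15.1 and 24.0 at Zt +16. *Setdb1*, its histone methyltransferase, had 1.49 and 3.10 FPKM at Zt +6, and *Atf7ip*, the partner of SETDB1, 4.03 and 12.3. The HP1 genes *Cbx3* and *Cbx5* had 7.08 and 28.1 FPKM and 3.58 and 11.4 FPKM, while *Cbx1* had 0.923 and 1.54. *Hdac1* (3.40 and 3.26) and *Hdac2* (10.2 and 11.7) stayed within the fold. At Zt +16 1 of the 17, *Trim28*, was higher, where 19% of all tested genes were. In other zinc finger families of the table, 11 of 19 tested *Zbtb* genes and 9 of 15 *Klf* and *Sp* genes were higher at Zt +6. So were 5 of 9 *Zscan* and *Zkscan* genes and 1 of 4 *Egr* genes. In the same order 0, 1, 0 and 1 were lower, beside 49.3% and 7.62% of all tested genes. With the groups at the same median 4, 4, 2 and 0 were higher and 1, 3, 1 and 1 lower. Only 16, 11, 6 and 3 of these genes reached 1 FPKM without the *Snord116del* Zt +6 value. Of the 17 partners 16 did, all but *Morc2a*. The counts as deposited thus partly rest on genes that this value brought in, and were not made without them.

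Promoters were searched for letters that clock and activity factors are known to bind. RefSeq (GRCm38.p6) gave windows from 250 bases before to 50 after the start for 125 of the 154 members by symbol, 157 windows in all. The E-box CACGTG, which reads the same on both strands, stood in 7 of these windows (4.46%) and in 7.15% of all 32851 windows. The cyclic AMP response element TGACGTCA, also the same on both strands, stood in 3 (1.91%) and in 1.79% of all. The members with an E-box were *Zfp871*, *Zfp292*, *Zfp365*, *Zfp943*, *Zfp207*, *Zfp944* and *Zfp512*, with differences at Zt +6 between 0.53 and 1.44.

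Peaks of *116HG* ChIRP were joined to a gene when they lay within 2 kb of it, and a peak of WT replicate 1 was called replicated when a peak of WT replicate 2 lay within 10 kb. By this rule 25 of the 154 members had a replicated peak (16.2%), where 18.1% of all tested genes with a position had one. The members spanned a median of 14.7 kb and all tested genes 23.3 kb, and the members with such a peak (20.3 kb) were longer than those without (13.2 kb). Of the 25, 17 were higher (68%) and 1 lower at Zt +6, and of the other 129, 73 were higher (56.6%) and 6 lower. Of all tested genes, with or without a peak, 49.3% were higher and 7.62% lower. The counts with and without a peak include the 45 members that reached 1 FPKM only with the *Snord116del* Zt +6 value. They were not made for the other 109. The members with a peak also had longer transcripts, with a median of 4006 bases against 3072. The part of length and level in these shares was not tested. Replicate 1 alone, with 78033 peaks, reached 139 members (90.3%, against 93.6% of all tested genes), and replicate 2 alone, with 11145, reached 23 (14.9% against 17.5%). The control lists reached 4 members with WT and non-specific control oligos (NSC; 2.60% against 2.53%), 6 with *Snord116del* and *116HG* oligos (3.90% against 2.86%) and 14 with *Snord116del* and NSC oligos (9.09% against 10.6%). Of 585 replicate 1 peaks at members 83.8% lay in exons, against 17.4% of 23 replicate 2 peaks, and over all tested genes the shares were 77.6% and 4.44%.

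In 10 members (6.49%, against 4.58% of all tested genes with a position) a peak of replicate 1 directly overlapped one of replicate 2. They were *Zfp148*, *Zfp800*, *Zfp462*, *Zfp738*, *Zfp386*, *Zfp655*, *Zfp532*, *Zfp1*, *Zfp341* and *Zfp821*. The sequences of 3 of these peaks, at genes that were higher in *Snord116del* at Zt +6, are shown because they share a feature. Each lies in an intron, is read on the plus strand of mm9 over the replicate 1 peak, and has in capitals the bases that the replicate 2 peak also covers.
Zfp148: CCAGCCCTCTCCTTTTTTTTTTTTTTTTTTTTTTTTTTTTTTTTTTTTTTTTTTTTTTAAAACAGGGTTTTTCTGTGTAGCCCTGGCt
Zfp800: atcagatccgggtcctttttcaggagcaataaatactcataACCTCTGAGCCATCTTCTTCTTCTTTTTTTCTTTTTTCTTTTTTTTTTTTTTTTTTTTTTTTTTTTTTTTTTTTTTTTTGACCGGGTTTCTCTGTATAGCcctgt
Zfp462: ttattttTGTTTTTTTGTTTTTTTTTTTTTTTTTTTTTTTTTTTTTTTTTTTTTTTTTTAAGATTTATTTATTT
They lie at chr16:33384306-33384393, chr6:28258748-28258893 and chr4:54996312-54996385, with a fold over input, as the authors give it, of 53.4, 89.4 and 58.0. The longest run of T in them was 46, 41 and 42 bases. Of the 10 shared peaks, 8 held at least 15 A or 15 T bases in a row, and those of *Zfp386* and *Zfp738*, both in exons, had longest runs of 7 and 5. Among the 575 other replicate 1 peaks at members 2.43% held such a run, and among the 23 replicate 2 peaks at members 60.9% did. Genome-wide the run stood in 87.5% of 1869 shared peaks, in 9.14% of the other replicate 1 peaks, in 38.3% of replicate 2 peaks and in 6.99% of WT NSC peaks. It stood in 0.944% of the *Snord116del* *116HG* peaks and in 1.18% of the *Snord116del* NSC peaks. The part of these runs in the overlap of the libraries was not tested.

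**Figure D5:**
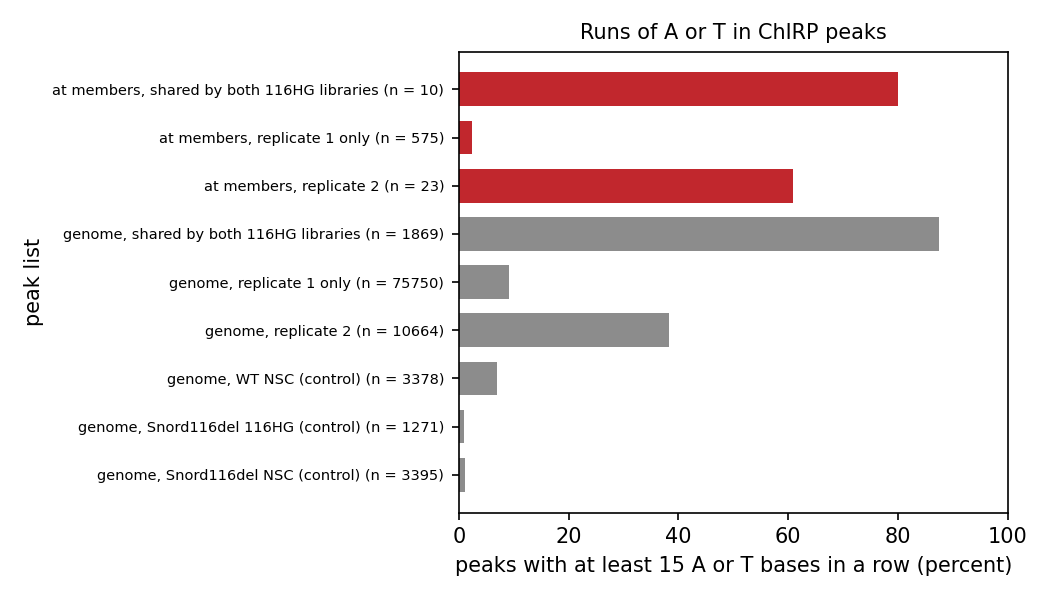
Percent of ChIRP peaks that hold at least 15 A or 15 T bases in a row, for peaks at the *Zfp* members (red) and for all peaks of a list on chromosomes of the reference (grey). The bars of the peaks shared by both *116HG* libraries (80% at members, 87.5% genome-wide) and of replicate 2 peaks at members (60.9%) are the longest, and that of all replicate 2 peaks (38.3%) follows.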

How the data were processed

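The authors aligned RNA-seq reads (NuGEN Encore Complete libraries) to mm9 with TopHat2 2.0.5 and deposited 1 Cuffdiff 2.0.2 FPKM value per group and gene; per the labels each group pools 2 or 3 mice, and read depth is not in the table. The deposited log2 fold changes and q-values are the authors' comparisons and were not used. For ChIRP-seq the authors aligned with Bowtie2 2.0.0, called peaks with MACS 1.4.2 against input at a 5% false discovery rate, and deposited the fold over input, a ratio of at least 20, except for replicate 2, which has positions only.

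Differences are log2(FPKM + 1) between group values, with no test. Genes, exons and transcripts came from GENCODE M1 on NCBIM37 (10165 of 10297 tested genes had a position). Fingers and the KRAB box (at least 15 of 35 consensus positions, no gaps) were counted in translated GENCODE coding sequences, where RefSeq proteins had been planned. Proteins at least 80% identical to another gene marked near copies, and 10 members shared over 5% of their 50-base windows with another gene, *Zfp781* all of them with *Gm3055*, so that reads could be split between copies. In 32 members exons overlapped another gene.

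Named genes were 4 lists by role, the 5 largest differences each way at Zt +6, 3 each way in the other comparisons, the 3 highest means and the 3 genes on either side of 1 FPKM; other names were chosen after their values were seen. The members and lists were chosen with earlier results of these data known. Alternatives were a pseudocount of 0.1, no filter, common median, quantile normalization, a fold of 2, removal of the length trend, exclusion of near copies, and other peak rules. The fold rule and peak join were tested on simulated data. Scripts used Python 3.11.15, numpy 2.4.6, pandas 2.3.3, scipy 1.17.1, Biopython 1.88 and, for plots, matplotlib 3.10.9.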

Additional observations from a re-analysis of the deposited data

Results flagged for a closer look

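In 6 *Zfp* genes the difference between *Snord116del* and WT cortex was past the fold in opposite directions at the 2 times of day, lower in *Snord116del* at Zt +6 and higher at Zt +16. The difference at Zt +6 minus that at Zt +16, in log2(FPKM + 1), was -2.12 for *Zfp580*, -1.94 for *Zfp771*, -1.49 for *Zfp428*, -1.41 for *Zfp579*, -1.31 for *Zfp467* (12 fingers) and -1.31 for *Zfp688*. Each rests on 4 group values, and the difference was not tested. The same turn was seen in 469 of the 785 tested genes that were lower at Zt +6. When the groups were brought to a common median, 0 members passed the fold at Zt +16. With the trend on transcript length removed, 1 of the 7 members lower at Zt +6 remained past the fold there.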

How the results depend on the processing

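No paired analysis was possible because the table holds 1 value per group, and no mouse was left out for the same reason. As deposited, 90 members were higher and 7 lower in *Snord116del* at Zt +6, with a median of 0.71. The number higher was 156 with no filter (of 340 genes), 24 at a common median, 23 after quantile normalization and 44 at a fold of 2; the number lower was 15, 16 and 1 in the last 3 and 1 with the length trend removed. The median was 1.013 with a pseudocount of 0.1, 0.552 with no filter, 0.140 at a common median, 0.127 after quantile normalization and 0.547 without the length trend. At Zt +16 the 11 higher members were 24 with a pseudocount of 0.1, 0 at a common median, 0 after quantile normalization (1 lower) and 1 at a fold of 2, and the median of 0.24 was 0.403 with a pseudocount of 0.1, 0.124 with no filter, -0.016 at a common median and -0.0015 after quantile normalization, so its direction turned in the last 2.

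From light to dark in WT, the 3 higher members were 5 at a common median, 1 after quantile normalization and 0 at a fold of 2, and the 12 lower ones 25 with a pseudocount of 0.1, 0 at a fold of 2 and 6 without the length trend. The median of -0.12 turned to 0.048 after quantile normalization. In *Snord116del* the 15 higher members were 23 at a common median, 29 after quantile normalization and 9 at a fold of 2, and the 77 lower ones 148 with no filter, 51, 45 and 51 in those 3. The median was -0.813 with a pseudocount of 0.1, -0.209, -0.061 after quantile normalization and -0.362 without the length trend. The time of day difference of 0.46 was 0.609 with a pseudocount of 0.1, 0.162 at a common median, 0.136 after quantile normalization and 0.277 without the length trend. The Zt +6 difference of *Zfp207* turned to -0.014 at a common median. Those of *Zfp326*, *Zfp346*, *Zfp622*, *Zfp410*, *Zfp687*, *Zfp423* and *Zfp488*, none past the fold as deposited, also turned negative. The 25 members with a replicated *116HG* peak were 10 by direct overlap, 64 within 50 kb, 7 in the upper quartile of the fold over input, and between 23 and 139 with 1 replicate left out. Leaving out near copies moved none of these counts by over 1.5 times. Where values moved, the cause was not tested.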
